A study of Rattus norvegicus with 6 samples.

Results

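The genes described here encode the vascular endothelial growth factor (VEGF) ligands Vegfa, Vegfb, Vegfc, Vegfd and Pgf, the receptors Flt1, Kdr and Flt4, and the neuropilin co-receptors Nrp1 and Nrp2. They were taken by gene symbol from the deposited expression table, in which all 10 were listed among 18825 genes. Messenger RNA came from full-thickness wounds of the dorsal skin of male Sprague–Dawley rats made diabetic with a high-fat, high-sucrose diet and then streptozotocin, a toxin of pancreatic beta cells, a background that both groups carried. In the DST-MNs group (3 libraries) the wounds were treated with microneedles that held dental pulp stem cell spheroids regulated by spermidine, a polyamine, and TGF-β3, a growth factor. In the control group (3 libraries) the diabetic wounds were left untreated, so the needles, the cells and the 2 agents cannot be told apart in this comparison. The labels call the libraries of a group biological replicates and name neither the day of collection, the age of the rats nor the species of the stem cells.

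VEGF ligands are secreted dimers that act on receptor tyrosine kinases of blood and lymphatic endothelium and drive the growth and permeability of vessels. VEGF-A signals mainly through the receptor that Kdr encodes, while the Flt1 product binds VEGF-A, VEGF-B and placental growth factor with high affinity, signals weakly and, in a soluble form, traps ligand. VEGF-C and VEGF-D act through the Flt4 product on lymphatic endothelium, and neuropilins present ligand to these receptors and also bind class III semaphorins. In skin wounds, keratinocytes and macrophages are known sources of VEGF-A, and new capillaries form in the granulation tissue.

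None of the 10 genes passed the test over all genes, and the 3 that came nearest were all lower after treatment. These were the receptor Flt1 and the lymphatic ligands Vegfc and Vegfd, whose levels lay between 53.0% and 62.8% of control and did not overlap between the groups. Vegfa, the main ligand, and Kdr, the main signalling receptor, overlapped between the groups, as did the neuropilins. By edgeR's quasi-likelihood test at a Benjamini-Hochberg adjusted p below 0.05, 0 of 10 members were called, where 0.776% of the 14427 genes tested were called, 0.658% higher and 0.118% lower. At an unadjusted p below 0.05, 4 members were lower and 0 higher, beside 6.88% and 9.8% of all genes and 16.7% in either direction. Overlap was judged on counts scaled to library totals adjusted by TMM, a factor per library (CPM). On this scale the groups did not overlap for 3 members that were lower and for 0 that were higher. Over all genes, 10% were lower and 12.9% higher without overlap, 22.9% in either direction. The median log2 change of the members was -0.25, and that of all genes was 0.0044. The Wald test of DESeq2 called 3 members, Flt1, Vegfc and Vegfd, all lower, where it called 2.51% of all genes lower and 6.86% in either direction. Limma-voom, the fit with the replicate number as a block and each fit with 1 library left out called 0.

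The libraries held 12545206 to 13513292 counts in the DST-MNs group and 13197378 to 13818548 in the control group, and the members had from 82 counts (Flt4 in DST-MNs 3) to 3828 counts (Nrp1 in DST-MNs 2) in a library. Defining genes of skin wound tissue were present in every library, among them Krt5, Col1a1, Pecam1 and Cdh5. Skeletal muscle markers split the controls: 8 such genes summed to 7029, 7474 and 5999 TPM (transcript abundance scaled by length and to a common total) in DST-MNs 1, 2 and 3, against 7812, 22.8 and 419 TPM in controls 1, 2 and 3, with Ckm, muscle creatine kinase, at 0 in control 2. Keratinocyte markers summed to 5108, 365 and 1565 TPM in the DST-MNs libraries and to 224, 30.1 and 219 TPM in the controls. With controls 2 and 3 left out, 0 members and 6 genes in all were called, and the lone control was assumed to vary like the treated group.

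Levels are compared between genes in TPM only. Nrp1 stood highest in both groups, at 61.1 ± 9.0 TPM in DST-MNs wounds and 52.4 ± 4.45 TPM in control wounds (mean ± SD, n = 3 each). Flt4 stood lowest, at 2.58 ± 0.81 TPM in DST-MNs wounds and 2.73 ± 0.55 TPM in control wounds. In the DST-MNs group the order was Nrp1, Vegfa, Vegfb, Nrp2, Vegfd, Kdr, Flt1, Vegfc, Pgf and Flt4. Neighbours in it whose libraries did not overlap were Nrp2 and Vegfd, Flt1 and Vegfc, and Pgf and Flt4. In the control group the order was Nrp1, Vegfa, Vegfb, Pgf, Vegfd, Nrp2, Flt1, Kdr, Vegfc and Flt4, and only Kdr and Vegfc, and Vegfc and Flt4, were neighbours that did not overlap. The place of Pgf in the control order rested on control 2.

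**Figure D1:**
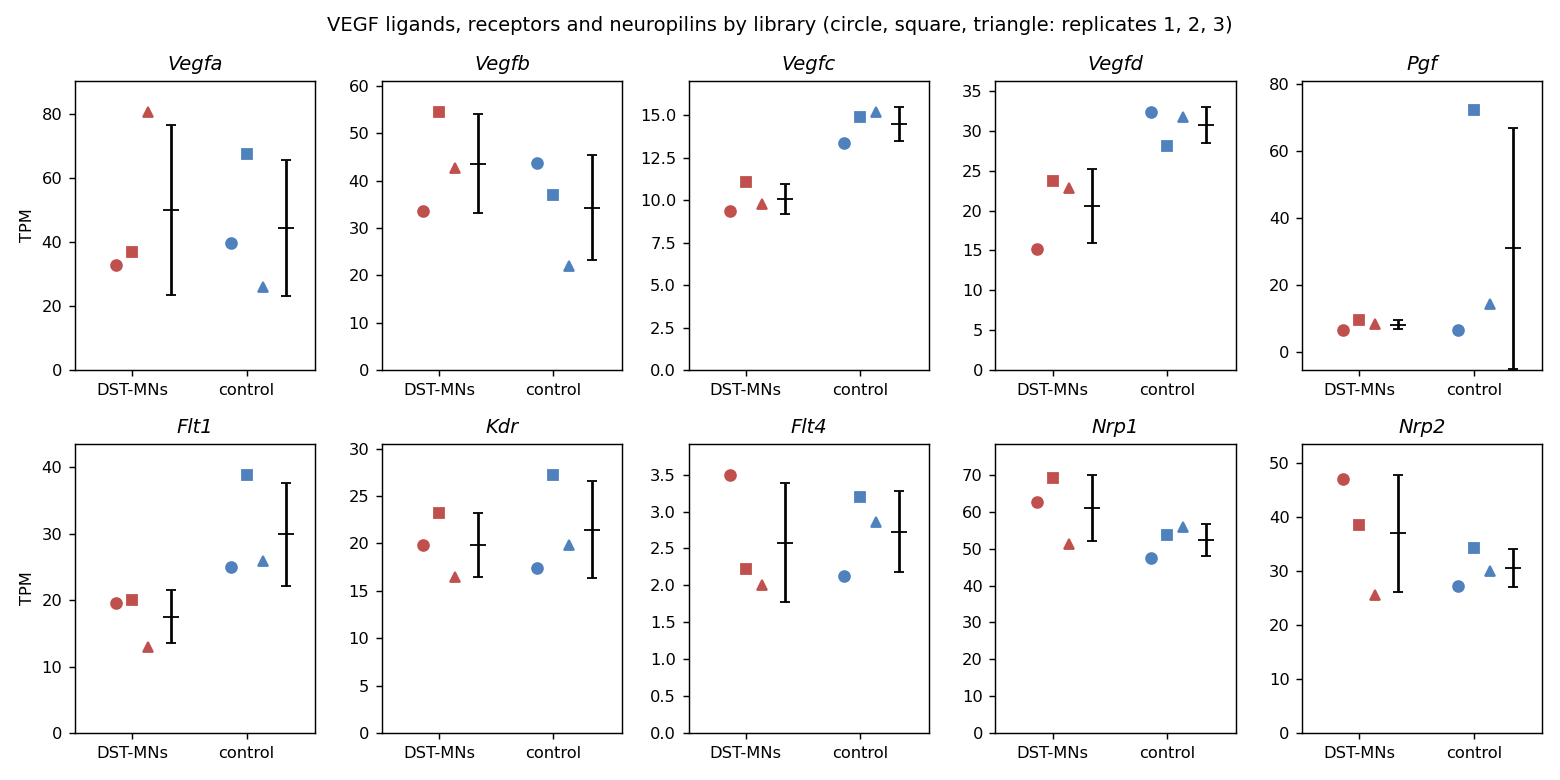
TPM of each gene (vertical axis, linear) in the DST-MNs and control libraries. Points are libraries, and the black mark and bars to the right of each group are the mean and SD of 3. Vegfc, Vegfd and Flt1 do not overlap between the groups, control 2 alone carries the high Pgf at 72.1 TPM, and the highest Vegfa is in DST-MNs 3 at 80.8 TPM.

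Among the ligands, Vegfa (gene ID 83785), the main driver of blood vessel growth, had 32.9, 36.8 and 80.8 TPM in DST-MNs wounds 1, 2 and 3, against 39.7, 67.6 and 26.2 TPM in control wounds 1, 2 and 3. One library of each group was high, and the groups overlapped, with the highest value in DST-MNs 3 and the lowest in control 3. The log2 change was 0.0093 (SE 0.50, 95% interval -1.19 to 1.21, adjusted p = 0.995 by edgeR), so a change of 2-fold in either direction lay within the interval. It was -0.60 without DST-MNs 3, -0.29 without control 3 and 0.47 without control 2.

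Vegfb (89811), a ligand of the Flt1 product that is abundant in muscle and fat, had 33.6, 54.5 and 42.8 TPM in DST-MNs wounds, against 43.8, 37.1 and 22.1 TPM in control wounds. The control lowest in Vegfb was control 3, and controls 2 and 3 were the libraries low in muscle markers. Control 2, the lowest of all in muscle markers, had more Vegfb than DST-MNs 1. The part of muscle in the level of Vegfb was not tested. The log2 change was 0.19 (SE 0.31, 95% interval -0.56 to 0.93), and it was -0.073 without control 3 and -0.21 without controls 2 and 3.

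Vegfc (114111), the principal lymphangiogenic ligand, had 9.35, 11.1 and 9.80 TPM in DST-MNs wounds, against 13.4, 14.9 and 15.2 TPM in control wounds. Every treated library lay below every control, and the spread within a group was small. The log2 change was -0.67 (SE 0.17, 95% interval -1.07 to -0.27, unadjusted p = 0.00555, adjusted p = 0.144 by edgeR), and the adjusted p of DESeq2 was 0.0206. In bulk tissue, fewer cells of a type and less RNA per cell cannot be told apart, for this and all later values.

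Vegfd (360457), the other ligand of Flt4 and a product of fibroblasts among other cells, had 15.2, 23.7 and 22.8 TPM in DST-MNs wounds, against 32.3, 28.1 and 31.7 TPM in control wounds. The treated libraries were again all below the controls, with DST-MNs 1 the lowest. The log2 change was -0.72 (SE 0.21, 95% interval -1.23 to -0.22, unadjusted p = 0.0117, adjusted p = 0.177 by edgeR), and the adjusted p of DESeq2 was 0.0321. Without DST-MNs 1 the log2 change was -0.52. The ratio of Vegfd to Vegfc in TPM was 1.63, 2.14 and 2.32 in DST-MNs wounds and 2.42, 1.88 and 2.09 in control wounds, and these values overlapped.

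Pgf (94203), placental growth factor, a ligand of the Flt1 product, had 6.80, 9.53 and 8.51 TPM in DST-MNs wounds, against 6.57, 72.1 and 14.3 TPM in control wounds. The log2 change of -2.05 (SE 0.84, 95% interval -4.05 to -0.049, unadjusted p = 0.046, adjusted p = 0.291 by edgeR) rested on control 2. Without that library it was -0.46 (adjusted p = 0.771). Control 2 was also the highest of the 6 libraries in Flt1 and Kdr, and the lowest in keratinocyte and muscle markers. Pgf made up 32.8% of the summed TPM of the 5 ligands there, against 4.84% to 13.1% in the other controls and 5.17% to 7.02% in the DST-MNs libraries.

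The starts of the 2 lymphatic ligand genes are shown because both stood lower without overlap. Each sequence is the 250 bases before the gene start in RefSeq, on the GRCr8 build and not the mRatBN7.2 build of the deposited table, read 5′ to 3′ on the strand of the gene, with hypoxia response cores (ACGTG or GCGTG, on either strand) and cAMP response elements (TGACGTCA, a palindrome that shares the letters ACGT with the former) in capitals where present. Vegfc lies at chr16:44560888-44561137 on the minus strand and Vegfd at chrX:33739893-33740142 on the minus strand.
Vegfc: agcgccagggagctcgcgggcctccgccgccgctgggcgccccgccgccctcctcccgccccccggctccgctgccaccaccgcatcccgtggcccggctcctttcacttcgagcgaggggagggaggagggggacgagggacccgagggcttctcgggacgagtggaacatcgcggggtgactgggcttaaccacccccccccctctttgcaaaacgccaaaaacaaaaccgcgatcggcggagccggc
Vegfd: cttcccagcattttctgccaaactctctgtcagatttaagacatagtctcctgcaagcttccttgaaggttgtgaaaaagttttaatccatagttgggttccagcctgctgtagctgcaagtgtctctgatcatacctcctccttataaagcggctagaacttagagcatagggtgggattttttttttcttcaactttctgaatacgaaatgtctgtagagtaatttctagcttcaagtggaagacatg
Neither window held a hypoxia core, which 36.7% of 33469 RefSeq rat promoters held in the same 250 bases. The Vegfc window was 72.4% G and C with 2 GC boxes (GGGCGG, found in 30.5% of promoters). The Vegfd window was 40.8% G and C with no GC box and a TATA box (TATAAA, in 12.9% of promoters) that began 106 bases before the start.

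**Figure D2:**
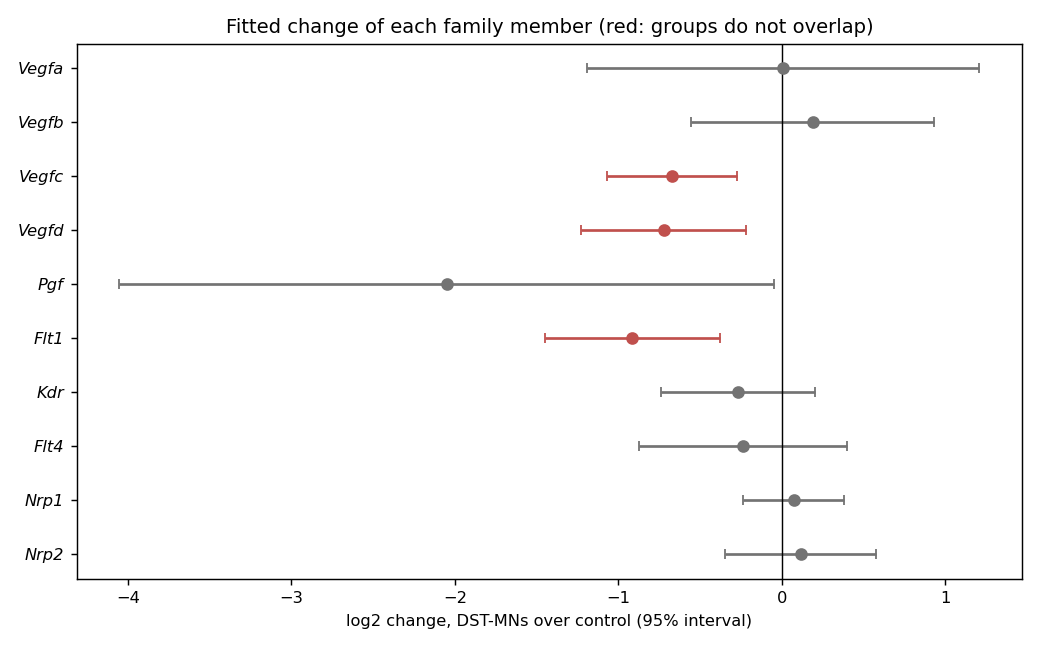
Fitted log2 change of each gene, DST-MNs over control (horizontal axis), with its 95% interval from edgeR's quasi-likelihood fit. Red marks genes whose libraries do not overlap between the groups, Vegfc at -0.67, Vegfd at -0.72 and Flt1 at -0.91. The intervals of Vegfa, Vegfb, Kdr, Flt4, Nrp1 and Nrp2 include 0.

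Of the receptors, Flt1 (54251), also called VEGF receptor 1, had 19.5, 20.1 and 12.9 TPM in DST-MNs wounds, against 25.1, 38.9 and 25.9 TPM in control wounds. All treated libraries were below all controls, DST-MNs 3 was lowest and control 2 highest. Flt1 had the smallest p of the family, with a log2 change of -0.91 (SE 0.22, 95% interval -1.45 to -0.38, unadjusted p = 0.00518, adjusted p = 0.142 by edgeR). DESeq2 gave an adjusted p of 0.00416, and with 1 library left out the edgeR log2 change ran from -1.04 to -0.68. Without controls 2 and 3, the libraries low in muscle markers, its log2 change was -0.72 (adjusted p = 0.888, edgeR), and the part of muscle in the level of Flt1 was not tested. The soluble and membrane forms of Flt1 are not separated in counts per gene.

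Kdr (25589), VEGF receptor 2, had 19.8, 23.2 and 16.5 TPM in DST-MNs wounds, against 17.4, 27.3 and 19.8 TPM in control wounds. The groups overlapped, and the log2 change was -0.27 (SE 0.20, 95% interval -0.74 to 0.20, adjusted p = 0.538, edgeR). Flt4 (114110), VEGF receptor 3, had 3.50, 2.22 and 2.01 TPM in DST-MNs wounds, against 2.13, 3.20 and 2.86 TPM in control wounds. It also overlapped, with DST-MNs 1 the highest of the 6, and its log2 change was -0.24 (SE 0.27, 95% interval -0.87 to 0.40, adjusted p = 0.692, edgeR).

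The 2 main receptors of blood vessels were set against each other within each library. The ratio of Flt1 to Kdr in TPM was 0.985, 0.865 and 0.782 in DST-MNs wounds 1, 2 and 3, against 1.44, 1.43 and 1.31 in control wounds 1, 2 and 3, so Flt1 was below Kdr in every treated library and above it in every control. Of the summed TPM of the 3 receptors, Flt1 made up 41.1% to 45.6% in DST-MNs wounds and 53.3% to 56.2% in control wounds, while Kdr made up 46.3% to 52.5% in DST-MNs wounds and 39.0% to 40.8% in control wounds. The log2 ratio averaged -0.19 ± 0.17 in DST-MNs wounds and 0.47 ± 0.078 in control wounds (SD of 3 libraries), a difference of -0.67 (exact two-sided permutation p = 0.1, the smallest that 3 against 3 libraries can give; 0.7 adjusted over 7 ratios). With 1 library left out the difference ran from -0.75 to -0.59. The other 6 ratios, Flt4 to Kdr, Nrp2 to Nrp1, Vegfc, Vegfb and Pgf to Vegfa, and Vegfd to Vegfc, overlapped between the groups, with exact permutation p from 0.3 to 1.

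The windows before the starts of Flt1 and Kdr are shown because this ratio separated the groups. They are given as above, Flt1 at chr12:12333180-12333429 and Kdr at chr14:32571813-32572062 of GRCr8, both on the plus strand.
Flt1: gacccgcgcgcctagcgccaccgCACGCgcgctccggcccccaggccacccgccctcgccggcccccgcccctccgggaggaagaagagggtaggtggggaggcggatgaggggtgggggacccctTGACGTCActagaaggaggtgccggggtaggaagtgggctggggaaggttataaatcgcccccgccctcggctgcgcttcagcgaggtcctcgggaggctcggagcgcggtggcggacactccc
Kdr: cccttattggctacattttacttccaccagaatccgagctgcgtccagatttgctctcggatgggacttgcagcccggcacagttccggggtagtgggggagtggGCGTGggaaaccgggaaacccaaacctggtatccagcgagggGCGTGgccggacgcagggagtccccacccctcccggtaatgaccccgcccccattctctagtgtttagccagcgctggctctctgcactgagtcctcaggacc
The Flt1 window held a cAMP response element that began 124 bases before the start, a sequence that 1.59% of RefSeq rat promoters held in this window, and 1 hypoxia core of the form GCGTG, on the other strand, that began 227 bases before it. It also held a TATA box 75 bases before the start, 3 GC boxes and 3 ETS cores (GGAA, in 93.2% of promoters). The Kdr window had 1 GC box and 4 ETS cores. The Kdr window held no cAMP response element and no TATA box, and had 2 hypoxia cores of the form GCGTG, 145 and 103 bases before the start. These matches describe the letters and do not show binding.

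**Figure D3:**
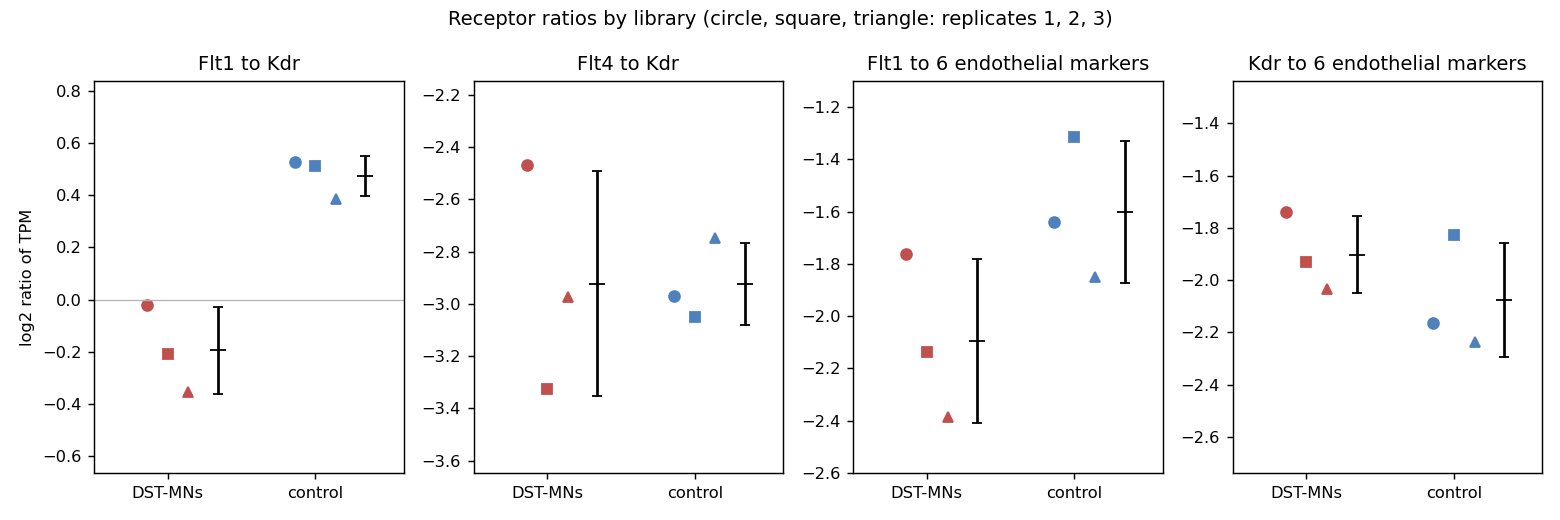
Log2 ratio of TPM (vertical axis, each panel spanning the same width) in the DST-MNs and control libraries, for Flt1 and Flt4 over Kdr and for Flt1 and Kdr over the mean log2 TPM of 6 endothelial markers. Points are libraries, black marks and bars the mean and SD. Only Flt1 to Kdr separates the groups, at -0.19 in DST-MNs wounds and 0.47 in control wounds.

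Both neuropilins overlapped between the groups. Nrp1 (246331), a co-receptor of VEGF-A and semaphorin 3A, had 62.8, 69.1 and 51.4 TPM in DST-MNs wounds, against 47.4, 53.8 and 56.0 TPM in control wounds. The log2 change was 0.073 (SE 0.13), and its 95% interval of -0.24 to 0.38 was the narrowest of the family. Nrp2 (81527), a co-receptor of VEGF-C and semaphorin 3F, had 47.0, 38.6 and 25.5 TPM in DST-MNs wounds, against 27.3, 34.4 and 30.0 TPM in control wounds. It was highest in DST-MNs 1 and lowest in DST-MNs 3, and its log2 change was 0.11 (SE 0.19, 95% interval -0.35 to 0.58).

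The receptors are made largely by endothelial cells, whose own markers mostly had negative log2 changes after treatment. Of 16 listed endothelial markers, 14 had negative log2 changes (median -0.39). In edgeR 0 passed over all genes and 4 were lower at an unadjusted p below 0.05. DESeq2 called 2 lower, Vwf and Eng. Vwf, von Willebrand factor, had 18.6, 19.3 and 14.7 TPM in DST-MNs wounds, against 23.3, 24.5 and 29.2 TPM in control wounds (log2 change -0.70, SE 0.12, adjusted p = 0.0723, edgeR). For Eng, the TGF-β co-receptor endoglin, the log2 change was -0.71 (SE 0.19, adjusted p = 0.156). The 2 markers with positive log2 changes were Cldn5, claudin 5 of endothelial tight junctions, at 0.89 (SE 0.38), and Sox17, an arterial transcription factor, at 0.29 (SE 0.33). Cldn5 had 33.6, 59.9 and 80.1 TPM in DST-MNs wounds, against 34.9, 28.5 and 21.8 TPM in control wounds, and overlapped through DST-MNs 1. Summed over the 16 genes the level was 943 to 1407 TPM in DST-MNs wounds and 1193 to 1436 TPM in control wounds.

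Set against the mean log2 TPM of Pecam1, Cdh5, Tie1, Esam, Erg and Egfl7, 6 of these 16 markers, in the same library, Flt1 was at -1.76, -2.14 and -2.39 in DST-MNs wounds, against -1.64, -1.31 and -1.85 in control wounds. The difference of -0.49 (exact permutation p = 0.2, two-sided; 0.333 adjusted over 10 members) stood beside one of -0.77 in log2(TPM + 0.1) with no marker subtracted, and the groups overlapped. Kdr on this scale differed by 0.17, with groups that overlapped (exact permutation p = 0.3). Nrp1 was at -0.080, -0.36 and -0.40 in DST-MNs wounds, against -0.72, -0.85 and -0.74 in control wounds, and Nrp2 was likewise higher in every treated library, with differences of 0.49 and 0.52 (exact permutation p = 0.1 for each, the smallest possible; 0.333 adjusted). Vegfc was lower in every treated library on this scale too, with a log2 difference of -0.24 (exact permutation p = 0.1, and 0.333 adjusted). Vegfd overlapped between the groups on this scale, with a log2 difference of -0.32 (exact permutation p = 0.2, and 0.333 adjusted). It overlapped against all 16 markers as well, at -0.43. Set against all 16 markers, the differences were -0.60 for Flt1 and 0.065 for Kdr, with groups that overlapped, -0.35 for Vegfc and 0.38 for Nrp1, with groups that did not, and 0.41 for Nrp2, whose groups then overlapped (exact permutation p = 0.2, 0.6, 0.1, 0.1 and 0.3). Neuropilins and ligands are also made by other cells, so these values are no level per endothelial cell.

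No gene downstream of the receptors passed over all genes. Of 31 listed genes of VEGF receptor signalling, from phospholipase C to the MAP kinases, 0 passed in edgeR, and DESeq2 called 2 higher and 1 lower. At an unadjusted p below 0.05, 3 were higher and 2 lower in edgeR, and the median log2 change was -0.16. Over all genes 9.8% were higher and 6.88% lower at that threshold, shares near those of this list. The counts of every other list are to be read beside the same shares. Nos3, endothelial nitric oxide synthase, had 16.6, 19.7 and 15.1 TPM in DST-MNs wounds, against 22.3, 27.1 and 24.7 TPM in control wounds (log2 change -0.68, SE 0.13, adjusted p = 0.0885, edgeR), and the groups did not overlap. Plcg2, a phospholipase C mainly of blood cells, had 8.97, 7.57 and 7.37 TPM in DST-MNs wounds, against 4.41, 4.70 and 4.67 TPM in control wounds (log2 change 0.64, SE 0.13, adjusted p = 0.0928, edgeR).

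Of 32 genes of receptor trafficking and modulation, 0 passed in edgeR, 1 was higher and 7 lower at an unadjusted p below 0.05 (median log2 change -0.19), and DESeq2 called 5, all lower. Thbs1, thrombospondin 1, an inhibitor of angiogenesis, had 64.2, 77.5 and 59.3 TPM in DST-MNs wounds, against 122, 349 and 223 TPM in control wounds (log2 change -1.93, SE 0.37, adjusted p = 0.0861, edgeR). Adamts1, a matrix protease that can bind VEGF-A, had 24.3, 20.9 and 23.8 TPM in DST-MNs wounds, against 35.7, 69.0 and 63.2 TPM in control wounds (log2 change -1.42, SE 0.24, adjusted p = 0.0666, edgeR). Every treated library was below every control for both.

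Genes that VEGF-A is known to induce in endothelium, measured here in whole tissue, mostly had negative log2 changes. Of 21 such genes, one of them Pgf, 17 had negative log2 changes (median -0.65), 0 passed over all genes in edgeR, 8 were lower and 0 higher at an unadjusted p below 0.05, and DESeq2 called 4 lower. Esm1, the tip-cell proteoglycan endocan, had 2.16, 3.12 and 4.49 TPM in DST-MNs wounds, against 7.33, 9.79 and 12.5 TPM in control wounds (log2 change -1.71, SE 0.36, adjusted p = 0.108, edgeR). Plaur, the urokinase receptor, had 43.7, 52.6 and 54.9 TPM in DST-MNs wounds, against 72.3, 110 and 75.8 TPM in control wounds (log2 change -0.92, SE 0.21, adjusted p = 0.131, edgeR). The list overlaps in kind with immediate early genes, genes that tissue handling can also induce. Of 14 of these, 11 were lower at an unadjusted p below 0.05 and 0 passed in edgeR, while DESeq2 called 8 lower. They summed to 639 to 818 TPM in DST-MNs wounds and 1100 to 1757 TPM in control wounds, with Ier3 and Zfp36 at log2 changes of -1.49 (SE 0.28) and -1.14 (SE 0.21). Their part in the values above was not tested.

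Hypoxia is a main inducer of Vegfa and Flt1, and its listed genes were mixed. Of 9 tested of 10 sensors and factors, 0 passed in edgeR, 2 were lower at an unadjusted p below 0.05 and DESeq2 called 1. Hif1a, the oxygen-regulated subunit of HIF-1, had 84.9, 112 and 50.6 TPM in DST-MNs wounds, against 131, 204 and 134 TPM in control wounds (log2 change -1.09, SE 0.30, adjusted p = 0.166, edgeR). For Epas1, which encodes HIF-2α, the log2 change was -0.65 (SE 0.25, adjusted p = 0.263). Of 27 hypoxia-inducible genes, 2 fell and 0 rose over all genes in edgeR, and 7 were lower and 2 higher at an unadjusted p below 0.05 (median log2 change -0.22). DESeq2 called 5 lower, Plod2, Adm, Pgk1, Lox and Ero1a, and 1 higher, Ca12. Adm, the vasodilator peptide adrenomedullin, fell to 12.2, 16.2 and 11.8 TPM in DST-MNs wounds, against 36.9, 51.0 and 32.0 TPM in control wounds (log2 change -1.74, SE 0.23, adjusted p = 0.0311, edgeR). Plod2, a collagen lysyl hydroxylase, fell to 20.7, 18.8 and 15.6 TPM in DST-MNs wounds, against 35.4, 61.2 and 47.7 TPM in control wounds (log2 change -1.54, SE 0.20, adjusted p = 0.0282, edgeR). With 1 library left out Adm kept its call in 2 of 6 fits and Plod2 in 1 of 6, with adjusted p up to 0.141 and 0.138. Vegfa, itself inducible by hypoxia, overlapped between the groups.

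**Figure D4:**
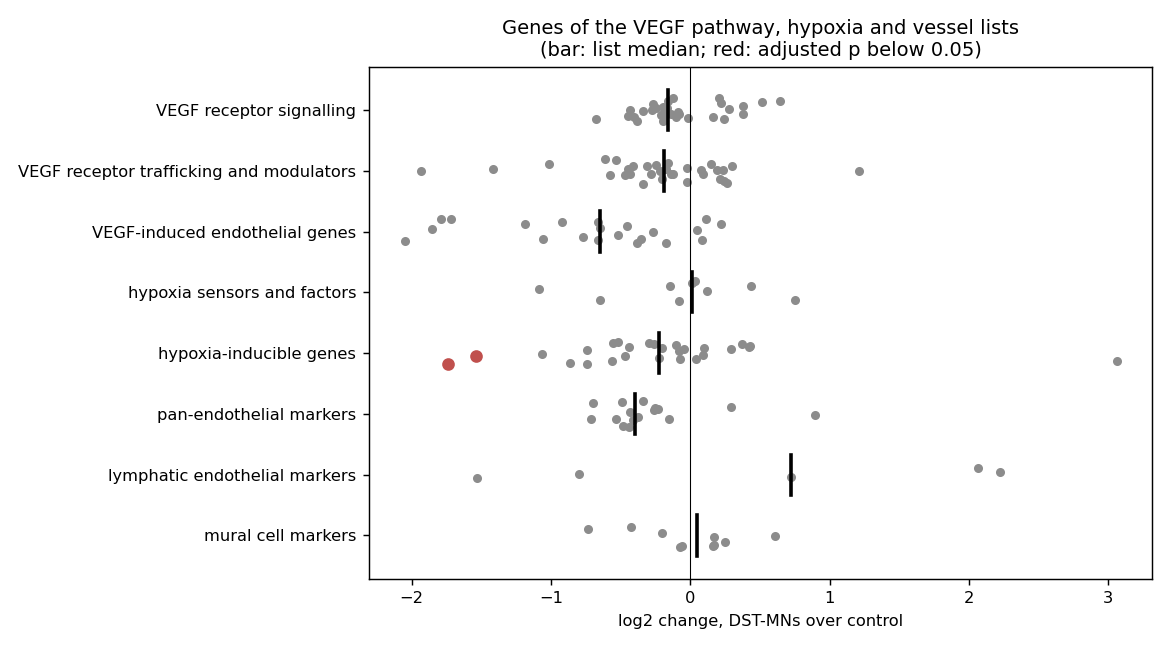
Log2 change, DST-MNs over control (horizontal axis), of each tested gene of 8 lists. Grey points did not pass over all genes, the 2 red points are Adm and Plod2, and the black bar is the list median, -0.65 for genes induced by VEGF and -0.39 for endothelial markers.

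Markers of the cells that use or make these ligands are given as measured values. Of 7 lymphatic endothelial markers, 5 were tested and 0 passed in edgeR, with 1 higher and 2 lower at an unadjusted p below 0.05 and 1 higher (Mmrn1) and 1 lower (Pdpn) called by DESeq2. The log2 changes were mixed, 3 positive and 2 negative, with a median of 0.72. Mmrn1, multimerin 1, had 4.61, 1.20 and 4.65 TPM in DST-MNs wounds, against 1.36, 0.32 and 0.31 TPM in control wounds (log2 change 2.22, SE 0.78, unadjusted p = 0.026). For Ccl21, a chemokine of lymphatic endothelium, the log2 change was 2.06 (SE 1.18) and for Reln, reelin, 0.72 (SE 0.48). Pdpn, podoplanin, which fibroblasts and keratinocytes also express, was at a log2 change of -0.80 (SE 0.14, adjusted p = 0.0732) and Lyve1, a hyaluronan receptor also found on macrophages, at -1.53 (SE 0.53, adjusted p = 0.226). Prox1, the defining transcription factor of lymphatic endothelium, was at 0.36, 0.11 and 0.16 TPM in DST-MNs wounds and 0.10, 0.02 and 0 TPM in control wounds, too low to be tested. The 7 genes summed to 166 to 317 TPM in DST-MNs wounds and 183 to 230 TPM in control wounds. Their part in the lower Vegfc and Vegfd was not tested.

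Of 10 mural cell markers 1 was lower at an unadjusted p below 0.05, Mcam (log2 change -0.73, SE 0.20), and 0 passed in edgeR, with DESeq2 calling 1; they summed to 657 to 1084 TPM in DST-MNs wounds and 646 to 806 TPM in control wounds. Of 10 fibroblast markers 2 were lower at an unadjusted p below 0.05 and 0 passed in edgeR, with DESeq2 calling 2. These were Pdgfra, platelet-derived growth factor receptor alpha (log2 change -0.77, SE 0.14), and Fbln1, fibulin 1 (-0.61, SE 0.13), and the list summed to 26680 to 33160 TPM in DST-MNs wounds and 27950 to 38920 TPM in control wounds. Of 12 monocyte and macrophage markers, 7 had negative and 5 positive log2 changes (median -0.22), 3 were lower and 0 higher at an unadjusted p below 0.05, and DESeq2 called 2 lower, Cd163 and Mrc1. In edgeR 1 fell, the scavenger receptor Cd163 (log2 change -1.75, SE 0.16, adjusted p = 0.0115, edgeR), which kept its call in 4 of 6 fits with 1 library left out and lost it without DST-MNs 1 or DST-MNs 3. That list summed to 4166 to 6939 TPM in DST-MNs wounds and 4309 to 5381 TPM in control wounds.

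Of 14 keratinocyte markers, 13 were higher at an unadjusted p below 0.05 and 0 passed in edgeR, with DESeq2 calling 5 and edgeR with the replicate number as a block 4 (Krt5, Krt14, Tp63 and Dsp). Cdh1, E-cadherin, had a log2 change of 3.59 (SE 0.67) and Dsp, desmoplakin, one of 4.60 (SE 1.13). The library with the most keratinocyte signal, DST-MNs 1, was the lowest of the treated group in all 5 ligands and the highest in Flt4 and Nrp2. It was also the treated library with the highest macrophage sum (6939 TPM) and the lowest endothelial sum (943 TPM). Over all 6 libraries, Vegfa and Vegfb were lowest in control 3, Pgf in control 1, and Vegfc and Vegfd in DST-MNs 1. Of 12 sebaceous gland markers, 5 rose, Elovl4, Awat1, Awat2, Dgat2l6 and Fasn, at log2 changes of 6.61, 6.92, 6.25, 4.98 and 1.56. Elovl4, a fatty acid elongase, kept its call in all 6 fits with 1 library left out, and the other 4 in 1 to 3. DESeq2 called 10 of the list, all higher. The sebaceous list summed to 640 to 754 TPM in DST-MNs wounds and 233 to 279 TPM in control wounds. Most of the control sum was 1 gene, Plin2, at 197, 249 and 189 TPM in controls 1, 2 and 3. It had 168, 229 and 131 TPM in DST-MNs 1, 2 and 3. Of the other lists, 0 of 6 tested neutrophil genes, 0 of 8 muscle genes and 0 of 6 tested adipocyte genes passed in edgeR, with 0, 0 and 1 at an unadjusted p below 0.05 and 0, 0 and 1 called by DESeq2, which gave only 3 of the muscle genes an adjusted p. Leading genes of these were Mmp8 and Csf3r (log2 changes -1.32 and -0.84), Ckm and Atp2a1 (1.94 and 1.81), and Lpl and Plin1 (0.94 and 1.38). The part of these cell types in the values of the family was not tested.

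**Figure D5:**
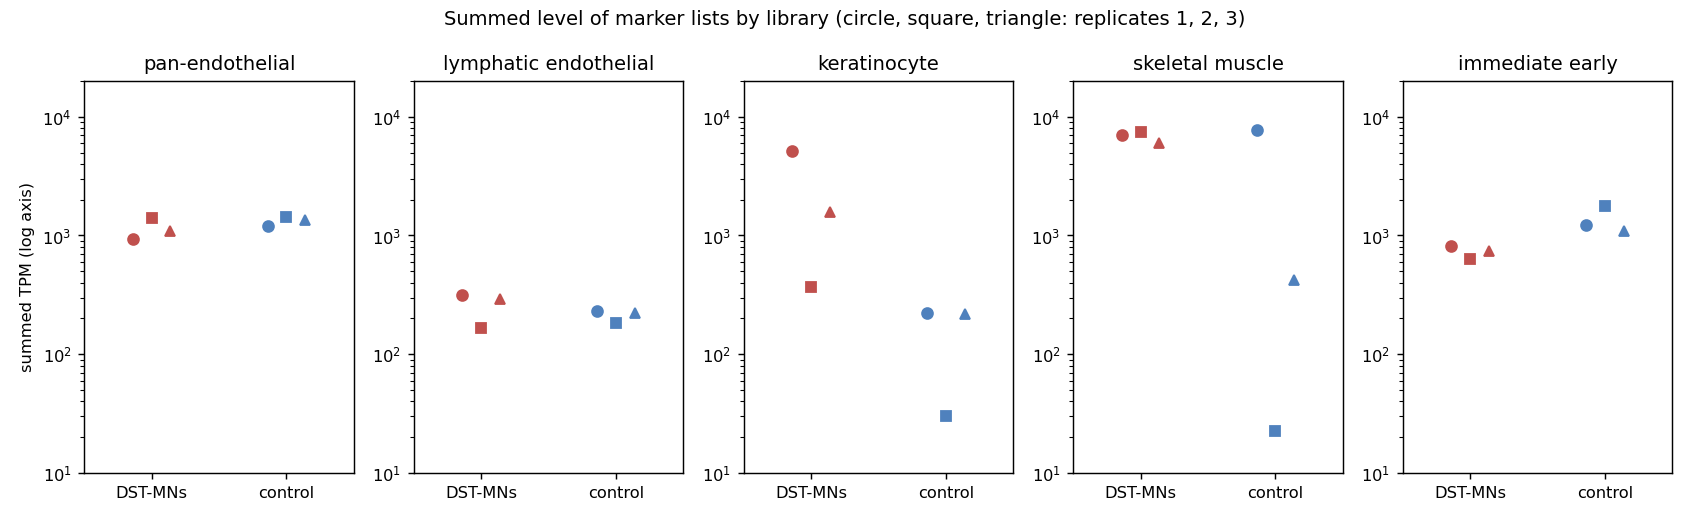
Summed TPM of 5 marker lists (vertical axis, log scale) in the DST-MNs and control libraries, each point 1 library. Muscle markers are at 5999 to 7474 TPM in the DST-MNs libraries and at 7812, 22.8 and 419 TPM in controls 1, 2 and 3, keratinocyte markers are higher in every treated library, and immediate early genes lower, at 639 to 818 TPM in the DST-MNs libraries against 1100 to 1757 TPM in the controls.

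The genes whose log2 CPM ran most like those of 3 members over the 6 libraries are named as a description only, chosen among 10461 genes by Pearson correlation. For Vegfa they were Uqcrb, Trim56, Rnf111, Vps25 and Ndufc1, at 0.954 to 0.982. For Kdr they were Foxn2, Dnajb1, Macir, Tsg101 and Crem, at 0.964 to 0.979, and for Flt4 Smarca5, Chek2, Pak1ip1, Xrn2 and Nup153, at 0.987 to 0.993. These correlations rest on 6 points, all from the same libraries and depths.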

How the data were processed

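RNA from 3 DST-MNs-treated and 3 control wounds was extracted with TRIzol and sequenced in pairs on a DNBSEQ-T7, per the labels' protocols. The authors deposited 1 table of 18825 genes with estimated counts, TPM, FPKM and normalised counts per library, per the file headers. The expected (estimated) counts deposited by the authors are unscaled, and 90.5% to 91.4% of them were whole. The TPM values deposited by the authors are scaled by length and to a common sum. The FPKM and the normalised counts, a signal the authors made by dividing counts by a factor per library, per the file headers and values, were not used. Reads were handled against mRatBN7.2, per the submitters' processing notes; neither the aligner nor the counter is given in the sources used here, nor is the way reads were divided between similar or overlapping genes.

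Counts were rounded, filtered with filterByExpr (minimum count 10; 14427 genes), scaled with TMM and tested with edgeR 4.0.16 (quasi-likelihood test, R 4.3.3) with Benjamini-Hochberg adjustment at 0.05. Standard errors are the log2 change over the root of F. Ratios used log2(TPM + 0.1), a log2 scale computed from the deposited TPM, and exact permutation tests. Alternatives used DESeq2 1.42.0, limma 3.58.1, upper-quartile factors, no filter, a replicate block and each library left out; a limma trend test on log2(TPM + 1) and a fit without controls 2 and 3 were chosen after seeing the data. The labels state no pairing by replicate number. Deviations of same-numbered libraries correlated at -0.02, 0.10 and 0.11, and those of differently numbered libraries at -0.22 to 0.10. With 3 libraries per group these values cannot decide whether the libraries were paired. The test was checked on simulated counts. The members and the gene lists were chosen with earlier results of these data known. Named were the members, the list genes past the threshold or the 2 with the smallest p per list, and the 5 genes most like Vegfa, Kdr and Flt4; genes beyond this rule (Krt5, Col1a1, Pecam1, Cdh5, Prox1 and the 6 endothelial genes) were fixed as markers, and Cldn5, Sox17, Mmrn1, Ccl21, Reln and the listed genes called by DESeq2 or the block alone were chosen after their values were seen. Plin2 was likewise named after its values were seen. All 250 list entries matched, 5 of them through RefSeq identifiers.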

Additional observations from a re-analysis of the deposited data

How the results depend on the processing

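Of 140 values of the 10 members under 14 alternatives, 124 kept their direction and their side of the threshold, 3 passed it (Flt1, Vegfc and Vegfd with DESeq2) and 13 changed sign. Vegfa, at 0.0093, was at -0.00447 without a count filter, -0.00428 with DESeq2, -0.0144 with voom and -0.0557 with the replicate block, and ran from -0.60 to 0.47 with 1 library left out. Left-out libraries gave ranges of -0.073 to 0.43 for Vegfb, -0.00489 to 0.15 for Nrp1 and -0.047 to 0.29 for Nrp2. Without controls 2 and 3, Vegfb was at -0.21, Pgf at 0.14, Flt4 at 0.059 and Cspg4, a mural gene at -0.42 with all libraries, at 0.11. The cause of these shifts was not tested.

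The count of changed genes, 112, was 1070 with DESeq2, 14 to 402 with 1 library left out and 6 without controls 2 and 3, where fewer libraries were fitted. Members called were 3 with DESeq2 and 0 otherwise. Of the other listed genes 8 were called, 52 with DESeq2, 1 to 16 with 1 library left out and 2 without controls 2 and 3. With the replicate block, 123 genes and 0 members were called (Flt1 adjusted p = 0.077), and Plod2, Dgat2l6 and Fasn lost their calls (adjusted p = 0.0549, 0.0693 and 0.0834) and 4 keratinocyte genes passed, Krt5, Krt14, Tp63 and Dsp (Dsp adjusted p = 0.0419). With 1 library left out, the differences between groups ran from -0.23 to 0.20 for Flt4 to Kdr, -0.15 to 0.15 for Nrp2 to Nrp1, -0.12 to 0.62 for Vegfb to Vegfa and -0.19 to 0.071 for Vegfd to Vegfc, and, over endothelial markers, from -0.028 to 0.73 for Vegfa and -0.13 to 0.39 for Flt4. The direction of Flt1 to Kdr held in all 9 alternatives run for it. As its groups did not overlap, neither leaving 1 library out nor the replicate block could have turned it. Members had 82 to 3828 counts in a library, fewest for Flt4, and how far this depth limits the intervals was not tested.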
